A study of Mus musculus with 12 samples.

Results

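The genes described here are 9 genes of the nuclear lamina, the inner nuclear membrane and heterochromatin. They were chosen by name and not by their values, though with earlier results of these data known. The members are Lmna, Lmnb1 and Lmnb2 (lamins), Lbr, Emd and Sun1 (membrane proteins that meet the lamina), and Cbx1, Cbx3 and Cbx5 (heterochromatin protein 1, HP1). They are 9 of the 56748 entries of a table of scaled counts and 9 of the 55372 genes of a table of TPM, a share of transcripts corrected for length. RNA came from retinas of 2-month-old mice that carried RiboTag, a ribosomal protein that gains a tag after Cre recombination, and i75-Rod-Cre, which drives Cre in rods. The groups were littermate controls, with these transgenes alone, and Abca4-/- mice with the same tag and Cre, named Abca4 KO here. Each genotype gave 3 libraries of RNA on tagged ribosomes (rod TRAP, translating ribosome affinity purification) and 3 of whole tissue lysate (retina), 12 in all. The labels do not say how many animals made a library, so p-values measure the spread between these libraries, which may be technical.

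The lamina is a mesh of lamin filaments under the inner nuclear membrane. B-type lamins, from Lmnb1 and Lmnb2, stay anchored to the membrane through a lipid group, and A-type lamins, from Lmna, are spliced as lamin A and lamin C. In most cells heterochromatin is held at the nuclear edge by the lamin B receptor, the product of Lbr, early in development and by A-type lamins later, and HP1 proteins bind the histone mark of constitutive heterochromatin. Rods of the mouse and other nocturnal mammals are a known exception. Their nuclei are inverted, with heterochromatin gathered in the centre, and the lamin B receptor and lamin A are known to be scarce or absent in them as proteins. The libraries measured here hold messages only.

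The sequences upstream of Cbx1 and Cbx3, the HP1 genes that were highest in rod TRAP, and of Lmna, the gene that was lowest there, are shown to let their base composition be compared. They are the 250 bases before the first listed transcription start in RefSeq, build GRCm38.p6, read 5′ to 3′ on the strand of the gene. Capitals mark the letters TAATCC on either strand, the core recognised by the photoreceptor factor CRX.
Cbx1: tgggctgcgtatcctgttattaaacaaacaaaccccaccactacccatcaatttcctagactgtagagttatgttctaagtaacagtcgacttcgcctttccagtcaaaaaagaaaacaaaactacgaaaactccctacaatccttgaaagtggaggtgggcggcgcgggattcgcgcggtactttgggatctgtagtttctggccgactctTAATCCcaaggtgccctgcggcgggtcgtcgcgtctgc
Cbx3: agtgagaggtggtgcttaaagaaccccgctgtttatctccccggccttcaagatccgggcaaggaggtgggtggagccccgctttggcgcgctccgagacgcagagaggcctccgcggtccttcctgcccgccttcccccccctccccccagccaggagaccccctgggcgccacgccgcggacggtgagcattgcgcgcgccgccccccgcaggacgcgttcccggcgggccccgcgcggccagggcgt
Lmna: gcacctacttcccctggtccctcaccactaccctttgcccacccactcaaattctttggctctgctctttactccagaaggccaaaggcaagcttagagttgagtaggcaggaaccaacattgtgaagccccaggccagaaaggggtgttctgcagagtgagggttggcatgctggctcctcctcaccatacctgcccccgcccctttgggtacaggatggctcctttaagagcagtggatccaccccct
The Cbx1 window lies at chr11:96788885-96789134 on the plus strand, that of Cbx3 at chr6:51470366-51470615 on the plus strand and that of Lmna at chr3:88503353-88503602 on the minus strand. RefSeq lists 1 start for Cbx1 and 2 each for Cbx3 and Lmna. Of the members, 8 had an entry in the RefSeq promoter table, and Lmnb1 had none. The letters TAATCC occurred once among the 8 windows, in Cbx1, from 38 to 33 bases before the start, and 6.38% of all 27025 windows of that length held them. The Cbx3 window held 29 CpG pairs, that of Cbx1 16 and that of Lmna 1. The median over all windows was 6 CpG pairs, with quartiles of 2 and 16. Among the other members the windows of Lbr and Sun1 held 31 and 30, that of Cbx5 22, that of Lmnb2 14 and that of Emd 12.

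The lowest and highest totals of the scaled counts were 17096515 and 17097707 (rod TRAP) and 17860761 and 17862326 (retina), because the submitters had scaled the libraries of a fraction to a common total, so the reads behind a value are not known. Abca4 was at or below 0.958% of the control mean in the libraries labelled KO replicates 1 and 2. In the library labelled KO replicate 3 it was at 23.5% in rod TRAP and 21.3% in retina, which goes against the label, and the tests between groups that use these libraries are given also without them. All 12 rod markers were higher in rod TRAP than in retina of controls. Besides cones (19.1% and 32.6% in controls and Abca4 KO), lists of 8 other cell types were at 1.61% to 33.3% of their retina level in rod TRAP of controls and at 1.53% to 30.5% in Abca4 KO. The upper end was that of the bipolar cells, where Prkca was higher in rod TRAP and the other 8 markers were lower (list median -4.41 on the log2 scale in controls). The summed TPM of 9 Müller glia markers, for example, ranged from 92.5 to 120 in control rod TRAP and from 3254 to 5193 in control retina, and in Abca4 KO from 102 to 143 and from 2824 to 4844. Onecut2 (horizontal cells) and Cdh5 (vessels) were the only markers listed at 0 TPM in all 6 rod TRAP libraries. The fractions also differed by base composition: over the fifth of genes with least GC against the fifth with most, the median log2 level differed by 0.75 to 0.88 in the rod TRAP libraries and by -0.36 to -1.42 in the retina libraries, with control retina replicate 3 at -1.42.

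Levels are given in normalised CPM, scaled counts per 1000000 after a common scale was set over all 12 libraries by trimmed means of M values (TMM), in the order of replicates 1 to 3, with means ± SD over 3 libraries. The log2 fold changes come from limma fits to log2(CPM + 0.5), each on the 6 libraries compared. Lmna reached the filter of 10 scaled counts in 3 libraries through retina alone, which fixes the direction of its difference, so it is left out of the counts. In controls, 7 of the other 8 members differed between rod TRAP and retina at a limma adjusted p under 0.05, and 5 of them were higher in rod TRAP. Since 75.3% of the 16286 genes tested differed in controls, 36% higher and 39.3% lower, 7 of 8 is near the background. In Abca4 KO 7 of 8 differed, all in the same direction as in controls, against 63.8% of 16036 genes, of which 29.4% were higher and 34.3% lower. Without either of the libraries labelled KO replicate 3 the Abca4 KO count was 5 of 8, with Lbr and Sun1 no longer called. Fewer genes were called in that fit as a whole, 5566 of 13150. The median log2 difference of all genes was -0.05 in controls under this scaling and -0.62 under the deposited scaling alone, and in Abca4 KO it was -0.02 and -0.49. Directions below are therefore relative to the typical gene. In retina, where all cell types are mixed, fewer cells of a type and less RNA per cell cannot be told apart.

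Lmna was close to the lower limit of the data in rods. It stood at 0.285, 0.213 and 0.425 CPM in control rod TRAP, at 10.0, 9.20 and 12.5 CPM in control retina, at 0.429, 0.348 and 0.0692 CPM in Abca4 KO rod TRAP and at 5.26, 13.1 and 7.38 CPM in Abca4 KO retina. All 6 rod TRAP libraries lay far below all 6 retina libraries, and the 3 Abca4 KO retina libraries spread more widely than the 3 control ones. The log2 fold change was -3.72 (SE 0.21) in controls and -3.50 (SE 0.34) in Abca4 KO, given as a description because the filter fixed its direction. This scale understates the difference at so low a level. Summed over 3 libraries, Lmna had 13 scaled counts in control rod TRAP and 679 in control retina, which is 2.00% of the retina level per total, and 12 and 568 in Abca4 KO, which is 2.21%. Of the other cell types, the marker lists of ganglion cells (1.61% and 1.53%), RPE (1.74% and 2.99%) and Müller glia (2.30% and 2.80%) had the most similar percentages in controls and Abca4 KO, and the part of RNA from other cells in the Lmna counts of rod TRAP was not tested. The mean TPM of Lmna in controls was 0.2 in rod TRAP and 9.17 in retina.

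Lmnb1, the B-type lamin with the most transcripts, was higher in rods. It stood at 99.1, 105 and 95.7 CPM in control rod TRAP, at 41.4, 40.3 and 37.3 CPM in control retina, at 102, 100.1 and 91.6 CPM in Abca4 KO rod TRAP and at 50.8, 37.4 and 37.7 CPM in Abca4 KO retina. The fractions did not overlap in either genotype. As log2 fold changes the differences were 1.40 (SE 0.12, limma adjusted p = 2.23e-07) in controls and 1.20 (SE 0.16, limma adjusted p = 5.82e-05) in Abca4 KO, or 1.00 (limma adjusted p = 0.00205) without the libraries labelled KO replicate 3. It was 0.78 and 0.69 under the deposited scaling, and Lmnb1 was called higher under every alternative run.

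Lmnb2, which encodes the other B-type lamin, gave 25.4, 26.0 and 25.2 CPM in control rod TRAP, 30.6, 28.6 and 29.8 CPM in control retina, 24.5, 26.0 and 22.6 CPM in Abca4 KO rod TRAP and 22.2, 25.6 and 24.7 CPM in Abca4 KO retina. Control rod TRAP lay below control retina by a small margin, and in Abca4 KO the fractions overlapped. The log2 difference was -0.14 (95% confidence interval -0.41 to 0.13, limma adjusted p = 0.331) in controls and -0.01 (-0.34 to 0.32, limma adjusted p = 0.953) in Abca4 KO, or -0.12 without the libraries labelled KO replicate 3. Its direction depended on the scaling: it was -0.75 (limma adjusted p = 0.00015) under the deposited scaling and 0.59 (limma adjusted p = 0.000318) after centring by GC content in controls, and -0.51 and 0.54 in Abca4 KO. Without control retina replicate 2 or 3 the control value was -0.38 and -0.37, both past the threshold. At 57.6% GC, Lmnb2 was the member richest in GC.

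Lbr, which encodes the lamin B receptor, a membrane protein that binds both B-type lamins and HP1, was not depleted in the messages bound by rod ribosomes. Its levels were 22.3, 24.5 and 22.4 CPM in control rod TRAP, 13.6, 12.5 and 10.3 CPM in control retina, 20.4, 19.1 and 21.3 CPM in Abca4 KO rod TRAP and 15.4, 12.3 and 14.3 CPM in Abca4 KO retina. Rod TRAP lay above retina in every library of both genotypes. In controls the log2 fold change was 0.98 (SE 0.15, limma adjusted p = 6.17e-05), and it was called higher under all 17 alternatives, with values from 0.32 after centring by GC content to 1.02, and 0.64 without control retina replicate 3. In Abca4 KO the fold change was 0.50 (SE 0.16, limma adjusted p = 0.0196) and was less firm. It lost the call under 9 of 18 alternatives, among them the deposited scaling (0.0020), the TPM table (0.22) and the fits without KO rod TRAP replicate 3 (0.47), KO retina replicate 1 (0.35), 2 (0.21) or 3 (0.37), or both libraries labelled KO replicate 3 (0.30). The known scarcity of the lamin B receptor in rods concerns the protein, and the Lbr message was present in all 6 rod TRAP libraries at 9.7 to 12.8 TPM.

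Emd encodes emerin, an inner nuclear membrane protein that binds A-type lamins, and it was lower in rod TRAP. Its levels were 15.3, 19.6 and 17.4 CPM in control rod TRAP, 24.8, 26.9 and 33.3 CPM in control retina, 18.1, 20.2 and 18.7 CPM in Abca4 KO rod TRAP and 26.5, 28.6 and 20.9 CPM in Abca4 KO retina. The fractions did not overlap, though KO retina replicate 3 lay just above the highest rod TRAP library (20.2 CPM). On the log2 scale it was -0.61 (SE 0.16, limma adjusted p = 0.00373) in controls and -0.42 (SE 0.17, limma adjusted p = 0.0454) in Abca4 KO. Centring by GC content took it to -0.26 (limma adjusted p = 0.0812) in controls. The Abca4 KO call was lost after centring by GC content (-0.18, limma adjusted p = 0.281), with no low-value filter (-0.39), in TPM (-0.64) and without KO rod TRAP replicate 1 (-0.38), 2 (-0.46) or 3 (-0.41), while without KO retina replicate 3 the value was -0.69 and without either library labelled KO replicate 3 it was -0.72.

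Sun1 encodes an inner membrane protein of the LINC complex, which couples the lamina to the cytoskeleton. It stood at 152, 137 and 127 CPM in control rod TRAP, at 95.8, 90.1 and 87.2 CPM in control retina, at 122, 137 and 138 CPM in Abca4 KO rod TRAP and at 79.9, 82.6 and 76.6 CPM in Abca4 KO retina. All rod TRAP libraries lay above all retina libraries on this scale. The log2 fold change was 0.68 (SE 0.12, limma adjusted p = 0.000178) in controls and 0.70 (SE 0.13, limma adjusted p = 0.000794) in Abca4 KO. In TPM Sun1 was at 70.7 to 87.9 in control rod TRAP and 55.6 to 62.9 in control retina. In Abca4 KO it was at 64.4 to 81.3 and 41.8 to 58.4 TPM. Under the deposited scaling the log2 fold change was 0.058 (limma adjusted p = 0.654) in controls and 0.20 (limma adjusted p = 0.238) in Abca4 KO. Sun1 was thus higher relative to the typical gene and in TPM, but was not called higher in its share of all scaled counts. Without control retina replicates 2 and 3 the control value was 0.45 and 0.41. Without either of the libraries labelled KO replicate 3 the Abca4 KO value was 0.46 (limma adjusted p = 0.0775).

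**Figure D1:**
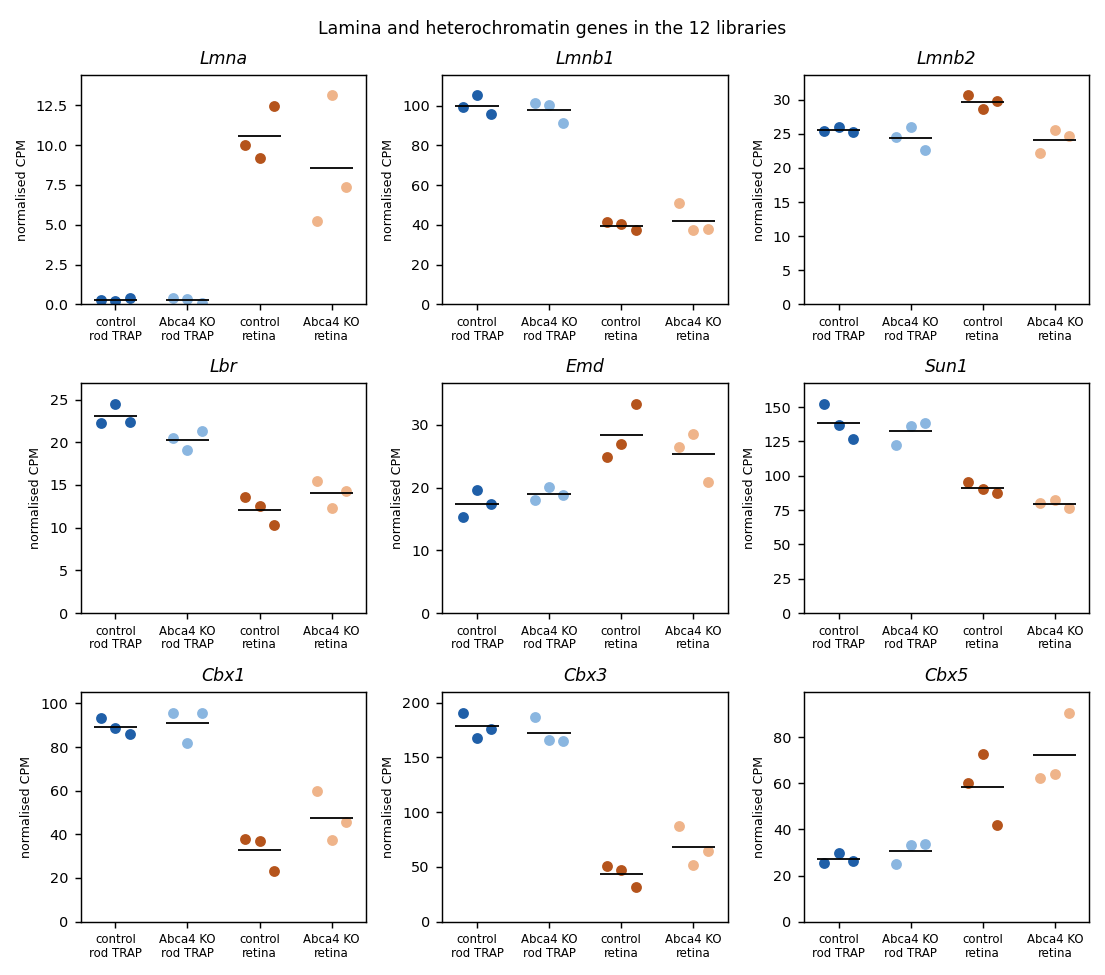
Normalised CPM (y axis, from 0) of the 9 members in the 12 libraries, by group (x axis), with 1 point per library and a line at the mean of 3. Lmna was near 0 in rod TRAP (0.0692 to 0.429 CPM) against 5.26 to 13.1 CPM in retina, and Lmnb1, Lbr, Sun1, Cbx1 and Cbx3 were higher in rod TRAP than in retina.

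The HP1 genes differed in direction. Cbx3, which encodes HP1γ, the form found in euchromatin as well as heterochromatin, had the most transcripts of the members and, before centring by GC content, the highest fold change over retina. It stood at 191, 168 and 176 CPM in control rod TRAP, at 50.8, 47.0 and 31.2 CPM in control retina, at 187, 166 and 165 CPM in Abca4 KO rod TRAP and at 87.3, 52.0 and 64.1 CPM in Abca4 KO retina. The fractions were well apart in both genotypes, and control retina replicate 3 was the lowest library. Its log2 fold change was 2.14 (SE 0.17, limma adjusted p = 1.34e-07) in controls and 1.35 (SE 0.19, limma adjusted p = 8.9e-05) in Abca4 KO. Its transcript, at 38.7% GC, was the member poorest in GC, and after centring by GC content the values were 0.61 (limma adjusted p = 0.000172) and 0.46 (limma adjusted p = 0.0321), below those of Lmnb1 (1.75 and 1.44), Sun1 (0.83 and 0.81) and Cbx1. Without the libraries labelled KO replicate 3 the Abca4 KO value was 1.17 (limma adjusted p = 0.00199). Among annotated transcripts 13 other genes, pseudogenes of Cbx3 among them, matched at 90% identity or more over at least 200 bases. The 12 of them in the table summed to at most 2.59% of the Cbx3 value in any library, but how reads shared between copies were assigned is not stated, and reads dropped for matching several copies are not counted in that sum, so the Cbx3 level is uncertain.

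Cbx1 encodes HP1β, a form concentrated at constitutive heterochromatin. Its levels were 93.1, 88.5 and 85.8 CPM in control rod TRAP, 37.8, 37.1 and 23.3 CPM in control retina, 95.7, 81.7 and 95.8 CPM in Abca4 KO rod TRAP and 59.9, 37.4 and 45.5 CPM in Abca4 KO retina. Rod TRAP varied little, and retina spread widely, again with control retina replicate 3 lowest. The log2 fold change was 1.54 (SE 0.17, limma adjusted p = 3.44e-06) in controls and 0.93 (SE 0.18, limma adjusted p = 0.000967) in Abca4 KO. After centring by GC content it was 0.87 and 0.52, still past the threshold, and without KO retina replicate 2 the Abca4 KO value was 0.56. Without the libraries labelled KO replicate 3 it was 0.69 (limma adjusted p = 0.0326).

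Cbx5, which encodes HP1α, the form most tied to constitutive heterochromatin, went the other way. It stood at 25.6, 29.7 and 26.5 CPM in control rod TRAP, at 60.2, 73.0 and 41.9 CPM in control retina, at 24.8, 33.3 and 33.9 CPM in Abca4 KO rod TRAP and at 62.4, 64.3 and 90.8 CPM in Abca4 KO retina. Every retina library was above every rod TRAP library. The log2 fold change was -0.97 (SE 0.18, limma adjusted p = 0.000294) in controls and -1.25 (SE 0.19, limma adjusted p = 0.000185) in Abca4 KO, and Cbx5 was called lower in rod TRAP under every alternative run. Like Cbx1 and Cbx3 it is poor in GC (42.6%), and centring by GC content moved it further from 0, to -2.03 and -1.88. Without the libraries labelled KO replicate 3 the Abca4 KO value was -1.33 (limma adjusted p = 0.000377).

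**Figure D2:**
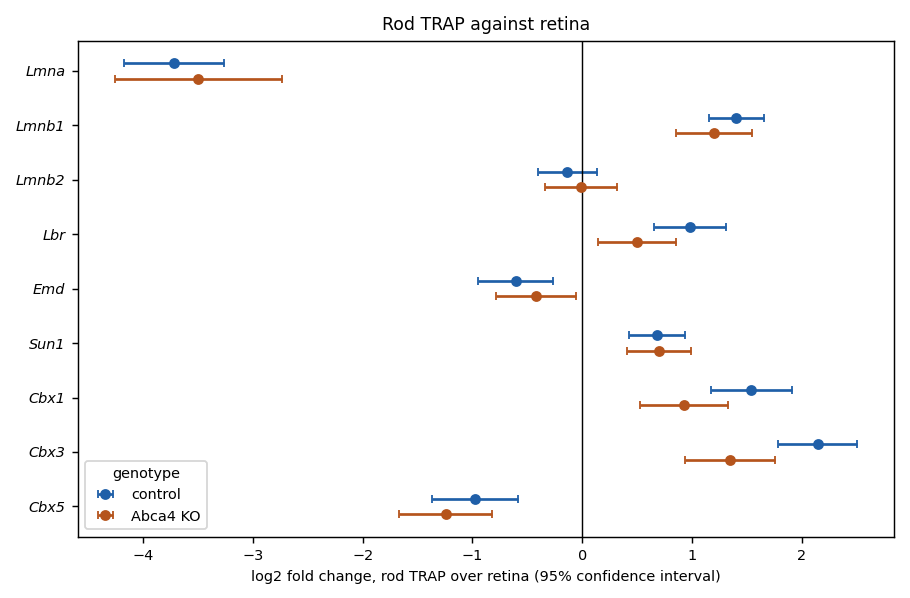
Log2 fold change of each member, rod TRAP over retina (x axis, points, with 95% confidence intervals as bars), in control and Abca4 KO libraries, 3 against 3 in each. Lmna was at -3.72 and -3.50, Cbx3 at 2.14 and 1.35, and the intervals of Lmnb2 held 0 in both genotypes.

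Within the lamin family the composition of the messages differed between fractions. As a share of the summed TPM of the 3 lamin genes, Lmnb1 made up 81.8% to 84.1% in the 6 rod TRAP libraries and 47.8% to 67.5% in the 6 retina libraries. Lmnb2 made up 15.6% to 18.0% and 23.8% to 32.1%, and Lmna 0.151% to 0.297% and 8.74% to 22.7%. None of these ranges overlapped. The mean share of Lmnb1 was 82.6% ± 0.839 in rod TRAP and 54.5% ± 6.89 in retina (SD over 6 libraries), 28.2 percentage points apart. The shares of Lmna and Lmnb2 were lower in rod TRAP by 15.5 and 12.6 points, from 15.8% ± 4.72 to 0.261% ± 0.0551 and from 29.8% ± 3.05 to 17.1% ± 0.837. For each of the 3, the exact permutation test of 6 libraries against 6 gave its smallest possible two-sided value, p = 0.00216, or 0.0026 after Benjamini-Hochberg adjustment over 6 shares. That test takes the libraries as independent, pools the genotypes and does not use the pairing of fractions by number. A share needs no scaling between libraries, but none was corrected for GC content. The shares of a family sum to 100% and are not independent of each other.

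Among the HP1 messages Cbx3 rose in share from 59.1% ± 3.09 of the summed TPM in retina to 74.4% ± 2.10 in rod TRAP, a difference of 15.3 points. Cbx5 fell from 15.0% ± 2.81 to 2.30% ± 0.366, or 12.7 points lower. Neither gene's ranges overlapped, with Cbx3 at 71.3% to 76.5% in rod TRAP and 54.1% to 63.6% in retina, and Cbx5 at 1.90% to 2.78% and 10.2% to 18.5% (exact permutation p = 0.00216 for each, adjusted 0.0026). Cbx1 was at 21.5% to 26.0% in rod TRAP and at 25.2% to 27.5% in retina, so its ranges met. Its difference of -2.56 points (exact permutation p = 0.0195, adjusted 0.0195) reversed to 5.78 points when shares were taken from scaled counts, which are not per length and weigh the long Cbx5 transcript more, and under pairing of the fractions by replicate number it had an exact sign-flip p = 0.0625. The direction for Cbx1 was thus not settled, whereas those of the other 5 shares were the same under every alternative run. Under that pairing these 5 had the smallest possible exact sign-flip p = 0.03125. No share was taken after centring by GC content, which in controls lowered the log2 fold change of Cbx3 to 0.61, below Cbx1 at 0.87. Without the libraries labelled KO replicate 3 the 6 differences were -15.8 points for Lmna, 28.3 for Lmnb1, -12.4 for Lmnb2, -3.14 for Cbx1, 16.1 for Cbx3 and -13.0 for Cbx5 (exact permutation, adjusted p = 0.00794 for each).

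**Figure D3:**
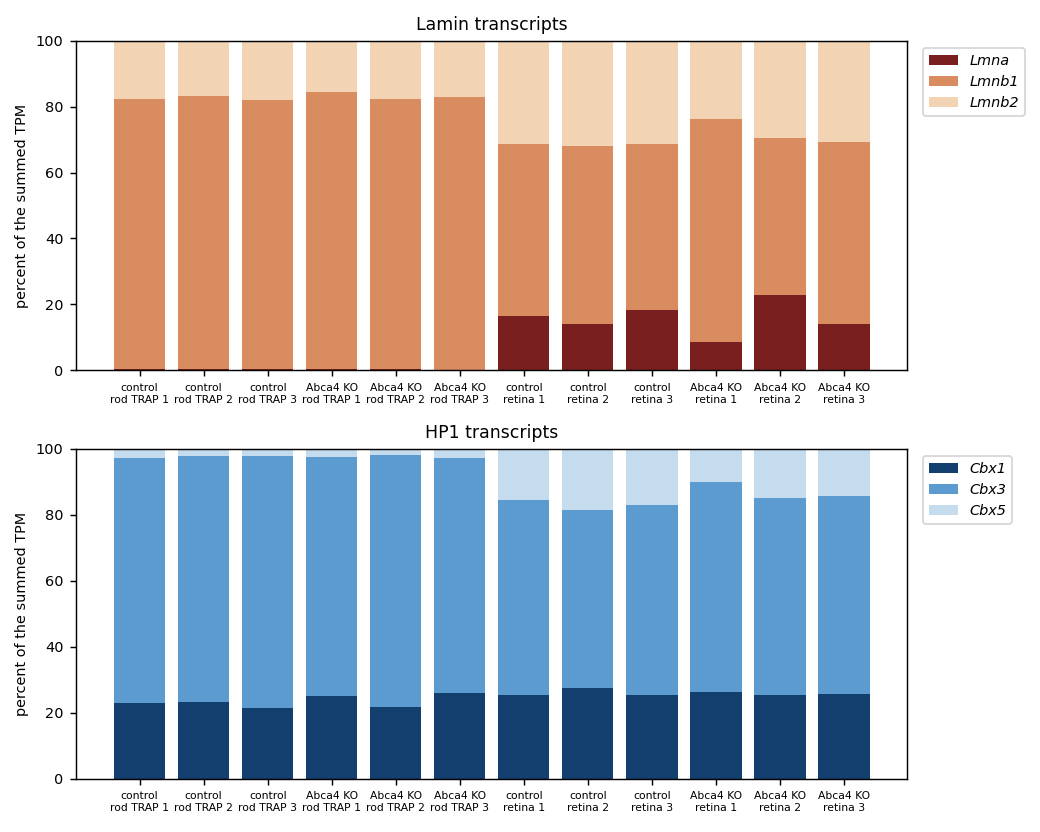
Share of each gene in the summed TPM (y axis, percent) of the 3 lamin genes (upper panel) and the 3 HP1 genes (lower panel) in each of the 12 libraries (x axis). Lmna took 8.74% to 22.7% of the lamin messages in retina and under 0.3% in rod TRAP, and Cbx5 took 10.2% to 18.5% of the HP1 messages in retina and 1.90% to 2.78% in rod TRAP.

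Per length, on the TPM scale, the order of the levels in control rod TRAP was Cbx3 (mean 271 TPM), Cbx1 (80.9), Sun1 (77.0), Lmnb1 (58.3), Emd (22.4), Lmnb2 (12.4), Lbr (12.3), Cbx5 (8.07) and Lmna (0.2). Cbx1 and Sun1 overlapped in their 3 libraries, as did Lmnb2 and Lbr, and the other neighbours were apart. Abca4 KO rod TRAP had the same order, with Lbr (9.7 to 11.6 TPM) and Cbx5 (6.5 to 9.7 TPM) also meeting. In control retina the order was Cbx3 (76.2 TPM), Sun1 (58.8), Emd (42.0), Cbx1 (35.2), Lmnb1 (29.5), Cbx5 (22.8), Lmnb2 (17.8), Lmna (9.17) and Lbr (7.57), and of the 8 pairs of neighbours, those of Sun1 with Emd and of Lmnb2 with Lmna did not overlap. In Abca4 KO retina it was Cbx3 (116 TPM), Sun1 (51.9), Cbx1 (48.9), Emd (35.3), Lmnb1 (28.0), Cbx5 (24.9), Lmnb2 (14.2), Lbr (8.87) and Lmna (7.90), and only Cbx3 with Sun1 and Cbx5 with Lmnb2 were apart. The 3 lamin genes summed to 70.9 ± 3.60 TPM in control rod TRAP and 56.5 ± 5.31 TPM in control retina. The 3 HP1 genes summed to 360 ± 31.9 and 134 ± 35.5 TPM. In Abca4 KO the lamin sums were 69.0 ± 3.54 TPM in rod TRAP and 50.1 ± 7.70 TPM in retina, and the HP1 sums 339 ± 12.6 and 190 ± 31.2 TPM.

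No member passed the test for a difference between the genotypes. In rod TRAP 8 members were tested, since Lmna did not reach 10 scaled counts in 3 libraries, and 0 passed a limma adjusted p under 0.05, where 1.12% of 13104 genes did. None had an unadjusted p under 0.05 either, against 10.4% of all genes. The 95% confidence intervals bounded the change of Lmnb1 between -0.20 and 0.19 on the log2 scale, that of Cbx3 between -0.23 and 0.20 and that of Lbr between -0.39 and 0.09. Lbr was the only 1 of the 8 whose groups did not overlap, at 19.1 to 21.3 CPM in Abca4 KO and 22.3 to 24.5 CPM in controls, a log2 difference of -0.15 (limma adjusted p = 0.689). Groups did not overlap in 17.5% of all genes. Without the library labelled KO replicate 3 the count was also 0. In the same libraries 8 of 9 cone markers had an unadjusted p under 0.05 and 1 passed, with a summed level of 455 to 478 TPM in controls and 566 to 701 TPM in Abca4 KO, and their part in the values of the members was not tested.

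In retina 0 of 9 members passed, where 0.112% of 16964 genes did. The HP1 genes had the largest differences: Cbx3 at 0.67 (95% confidence interval 0.14 to 1.20, limma unadjusted p = 0.0191, adjusted p = 0.406) and Cbx1 at 0.56 (0.03 to 1.09, limma unadjusted p = 0.0407, adjusted p = 0.409). These were the 2 of 9 members with an unadjusted p under 0.05, against 11.9% of all genes. For Cbx3 the Abca4 KO libraries, at 52.0 to 87.3 CPM, were above the control libraries, at 31.2 to 50.8 CPM. The groups were also apart for Lmnb2 (log2 difference -0.27) and Sun1 (-0.17), both lower in Abca4 KO, which makes 3 of 9 members against 19.7% of all genes. KO retina replicates 1 and 3, with the highest Cbx3 and Cbx1, were also those with the smaller deficit of GC-poor genes: the difference named above was -0.36, -0.78 and -0.45 in KO retina replicates 1 to 3 and -0.84, -0.88 and -1.42 in control retina replicates 1 to 3. Its part in these values was not tested beyond the centring by GC content, after which Cbx3 was at 0.19 and Cbx1 at 0.29. Without the library labelled KO replicate 3 the count was also 0, with Cbx3 at 0.67 and Cbx1 at 0.56 (limma adjusted p = 0.652 for each).

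The genotype changes in rod TRAP and in retina were compared by their interaction, over all 12 libraries. None of the 9 members passed (0.00579% of 17273 genes did). Cbx3 alone had an unadjusted p under 0.05, as did 11.3% of all genes, with a difference of -0.69 between its log2 genotype changes, rod TRAP minus retina (95% confidence interval -1.27 to -0.11, limma unadjusted p = 0.0222, adjusted p = 0.415). Without the libraries labelled KO replicate 3 the count was 0 as well and that difference was -0.69 (limma unadjusted p = 0.0532). The smaller rod TRAP over retina difference of Cbx3 in Abca4 KO than in controls was therefore not shown to be a difference between genotypes.

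**Figure D4:**
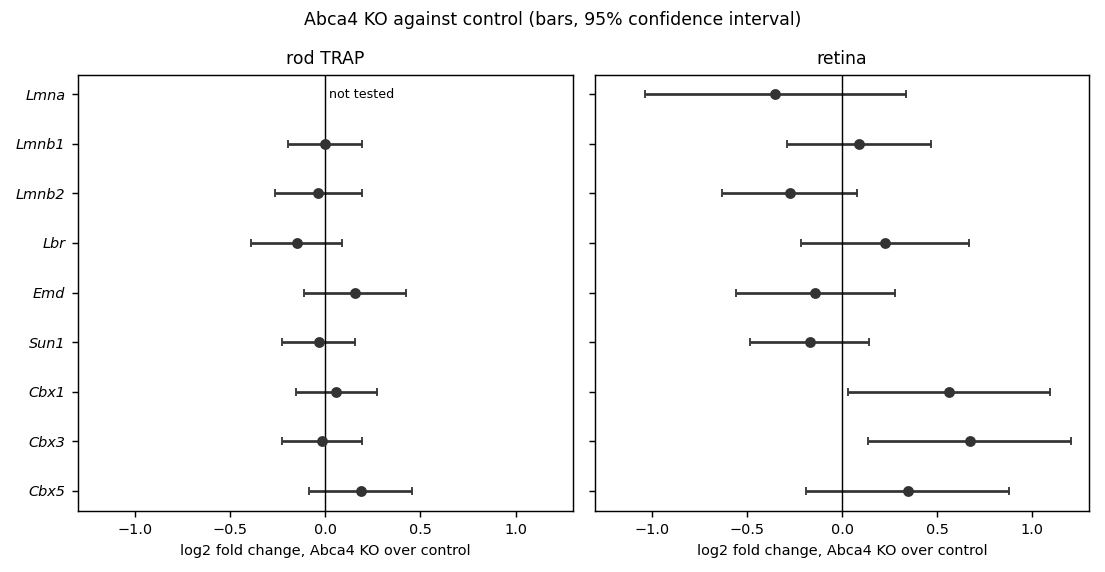
Log2 fold change of each member, Abca4 KO over control (x axis, points, with 95% confidence intervals as bars), in rod TRAP (left) and retina (right), 3 libraries against 3. In rod TRAP all 8 intervals held 0 and in retina those of Cbx1 and Cbx3 did not, with neither passing the adjusted threshold.

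The other genes of the same pathways were taken from 4 lists of 51 genes. Of 17 other nuclear envelope genes, 8 were higher and 4 lower in control rod TRAP, against 36% and 39.3% of all genes. The median log2 difference of the list was 0.05, against -0.05 for all genes. The highest were Lemd3 (1.99, SE 0.16, limma adjusted p = 1.45e-07), which binds lamins and curbs SMAD signalling, Syne1 (1.88) and Syne2 (1.37), the outer membrane nesprins that pair with SUN proteins, Tmpo (1.73), which encodes the lamina-associated polypeptide 2 family, and Ankle2 (1.70), a LEM-domain protein. Syne1 stood at 315, 327 and 299.5 CPM in control rod TRAP and at 91.8, 113 and 69.4 CPM in control retina, so that the lowest rod TRAP library was well above the highest retina library. Sun2 went the other way, at 12.0, 12.1 and 12.8 CPM in control rod TRAP and 24.7, 28.5 and 34.5 CPM in control retina. So did the nesprin gene Syne3, at 112, 111 and 105 CPM and at 147, 160 and 122 CPM. In Abca4 KO the fractions overlapped for Syne3 (103 to 156 and 108 to 160 CPM). The SUN and nesprin genes thus did not share a direction. Sun2 and Syne3 were named after their values were seen. Single control libraries moved the count of lower genes, to 7 and 6 without retina replicates 3 and 2 and to 2 without rod TRAP replicate 2 or 3, and without retina replicates 1 to 3 the median was -0.15, -0.14 and -0.09. In Abca4 KO 8 were higher and 2 lower, against 29.4% and 34.3% of all genes. The list counts became 4 and 3 of 16 without the libraries labelled KO replicate 3, against 2667 and 2899 of 13150 genes. They were 4 and 7 under the deposited scaling, against 2282 and 7814 of 16036 genes. With the replicate block they were 8 and 3, and without KO retina replicate 1 or 3 they were 6 and 4 of 16 or 6 and 3 of 16. Syne2 was at 0.91 (limma adjusted p = 0.0193) there and lost its call without KO rod TRAP replicate 2 (0.81) or 3 (0.71) or KO retina replicate 1 (0.41) or 2 (0.75), or both libraries labelled KO replicate 3 (0.76). Under the deposited scaling the control counts were 6 higher and 9 lower, where 3415 and 9549 of 16286 genes were. The balance of this list followed the scaling, while Lemd3, Syne1, Syne2, Tmpo and Ankle2 stayed higher in controls. These 5 were chosen for their large control differences in the same libraries.

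All 5 enzymes of lamin maturation were higher in rod TRAP of controls (median 0.58), where 36% of all genes were. They were Zmpste24 (1.17, limma adjusted p = 1.49e-05), the protease that trims prelamin A, and Icmt (0.70), which methylates the lipid-tagged end of lamins. The others were the farnesyltransferase subunits Fntb (0.58) and Fnta (0.42), and Rce1 (0.40), which removes the last residues before methylation. These calls did not hold under other settings: under the deposited scaling 1 of 5 was higher, with Fntb (-0.04), Fnta (-0.20) and Rce1 (-0.22) below 0, and centring by GC content turned Zmpste24 to -0.30 (limma adjusted p = 0.0247). Fnta lost its call without control retina replicate 1 (0.27), 2 (0.16) or 3 (0.18), Fntb without control retina replicate 1 (0.34), with 0.33 without replicate 2, and Rce1 without control retina replicate 1 (0.24) or 2 (0.038) or control rod TRAP replicate 2 or 3 (0.40 each), with 0.25 without control retina replicate 3. Icmt was at 0.43 and 0.46 without control retina replicates 2 and 3. In Abca4 KO 4 of 5 were higher, against 29.4% of all genes, and with the replicate block all 5 were, Fnta included (0.40). All but Fnta, which was not called there, lost their calls without either of the libraries labelled KO replicate 3 (0.30 to 0.53), and among single libraries Zmpste24 did so without KO rod TRAP replicate 2 (0.48) or KO retina replicate 1 (0.26) or 2 (0.41), and Rce1 without KO retina replicate 2 (0.44) or 3 (0.27). Fntb was at 0.46 without KO retina replicate 3.

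Of 25 other heterochromatin genes 23 were tested. In control rod TRAP 17 were higher and 2 lower (median 0.65), against 36% and 39.3% of all genes. The largest differences were those of Smchd1 (3.22, SE 0.21, limma adjusted p = 3.47e-08), a repressor of the inactive X chromosome and of imprinted clusters, Atrx (2.84), a remodeller that deposits histone H3.3 in heterochromatin, Kmt5b (2.47), which methylates histone H4 on lysine 20, Suv39h2 (2.08), which writes the mark that HP1 binds, and Setdb2 (1.98), a SET-domain protein of the same methyltransferase group. Smchd1 stood at 109, 108 and 99.0 CPM in control rod TRAP and at 15.0, 13.8 and 7.27 CPM in control retina, with the fractions far apart. The paralog Suv39h1 was at -0.10 (limma adjusted p = 0.481). H1f0, a linker histone of resting cells, and Ehmt2, which methylates H3 on lysine 9 in euchromatin, were the 2 that were lower, at -0.95 and -0.40. They and Suv39h1 were named after their values were seen. In Abca4 KO 11 of 23 were higher and 1 lower, against 29.4% and 34.3% of all genes, with the 5 named genes at 1.58 to 2.41. The count of higher genes was 5 of 23 without the libraries labelled KO replicate 3, where the named genes were at 1.35 to 2.28. It was 7 (with 2 lower) and 6 without KO retina replicates 1 and 2. In these fits, in that order, 2667 of 13150, 3638 of 13417 and 2958 of 13396 genes were higher, so the list counts of higher genes are near the background. The list counts of lower genes were 1, 2 and 1 of 23, where 2899, 3767 and 3077 of all genes were lower. With the replicate block 16 of the list were higher, where 5382 of 16036 genes were. Under the deposited scaling 5 of the list were higher and 5 lower, against 2282 and 7814 of 16036 genes. Smchd1, Atrx, Kmt5b, Suv39h2 and Setdb2 were called higher in both genotypes under every alternative run. Their lowest log2 values over the alternatives were 2.17, 1.31, 1.85, 1.13 and 0.93 in controls, in that order. In Abca4 KO they were 1.68, 1.33, 1.22, 1.02 and 0.94. These 5 genes were chosen for their large control differences in these same libraries, which largely set the calls. The count for the list depended on the scaling, with 7 higher and 6 lower in controls under the deposited scaling and 19 and 1 after centring by GC content. Of 16286 genes, 3415 were higher and 9549 lower under the deposited scaling, and 6173 and 6389 after the centring. Without control retina replicates 1 to 3 the list counts were 13 and 3, 12 and 4, and 12 and 4, with a median of 0.29 without replicate 3. Over all genes they were 4767 and 4178 of 13446, 4678 and 4638 of 13451, and 4967 and 4841 of 13471.

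The 4 Polycomb chromobox genes listed, relatives of the HP1 genes whose products read the Polycomb mark, had 1 higher and 2 lower in control rod TRAP. Of all genes 36% were higher and 39.3% lower. Cbx6 was lower in both genotypes (-1.28, limma adjusted p = 4.51e-07, and -1.26) and under every alternative, at 49.7, 51.7 and 46.8 CPM in control rod TRAP against 127, 133 and 121 CPM in control retina. Cbx2 (-0.59) and Cbx8 (0.41) changed sign or lost the call under other settings: after centring by GC content Cbx2 was at 0.13, and under the deposited scaling Cbx8 was at -0.21. Single control libraries also decided these calls and values, with Cbx2 at -0.50 and -0.56 without rod TRAP replicates 1 and 3 and at -0.94 without retina replicate 3, and Cbx8 at 0.41 and 0.42 without rod TRAP replicates 1 and 2 and at 0.23, 0.097 and 0.23 without retina replicates 1 to 3. In Abca4 KO 1 was higher (Cbx8) and 1 lower (Cbx6), and Cbx8 lost its call without KO retina replicate 1 (0.37), where 3 genes were lower, and without the libraries labelled KO replicate 3 (0.47). In neither fraction did the genotype alter a gene of these 4 lists at a limma adjusted p under 0.05.

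**Figure D5:**
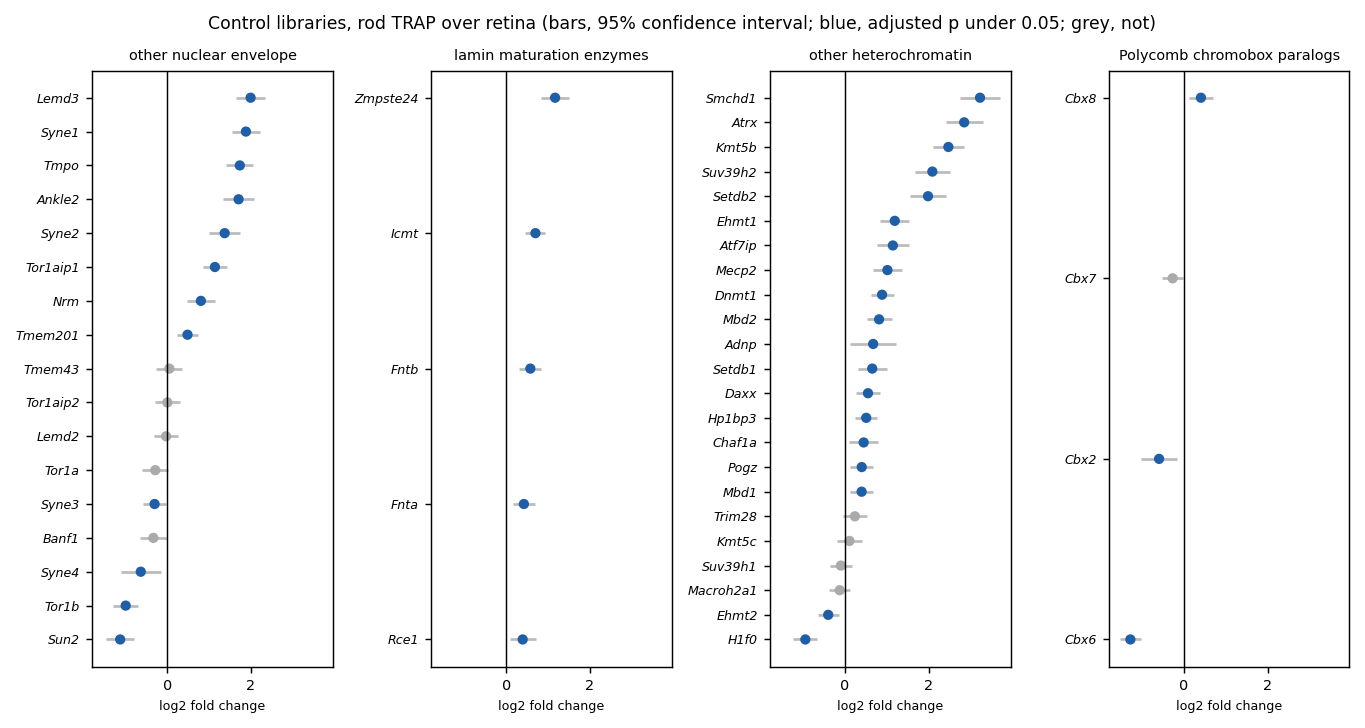
Log2 fold change of the other pathway genes, rod TRAP over retina (x axis), in the 6 control libraries, by list, with 95% confidence intervals as grey bars. Blue points passed an adjusted p under 0.05, and Smchd1 (3.22), Atrx (2.84) and Kmt5b (2.47) lay farthest above 0.

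By pattern over the 12 libraries, measured as the root mean square difference of centred log2 levels among 17273 genes, the nearest genes were close to most members. Those of Cbx1 were St13 (0.064), Ipo8 (0.084) and Ublcp1 (0.087), and those of Cbx3 were Atad1 (0.075), Gm12960 (0.075) and Gm5940 (0.084). Lmnb1 was nearest to Bbs2 (0.066), Serinc3 (0.070) and Gm7803 (0.075), and Lmnb2 to Cxxc1 (0.055), Mid1ip1 (0.071) and Gak (0.077). Lbr was nearest to Atg5 (0.083), Smarce1 (0.086) and Etv6 (0.086), Emd to Ubald1 (0.087), Tmub1 (0.087) and AI837181 (0.089), and Sun1 to Man2a2 (0.065), Dhx38 (0.075) and Ncbp1 (0.075). The nearest to Cbx5, namely Adamts9 (0.14), Impact (0.16) and Elovl6 (0.16), and to Lmna, namely Pld2 (0.19), Asic1 (0.19) and Tmem51 (0.19), were less close. These distances describe 12 libraries in which the fraction sets most of the pattern.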

How the data were processed

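Per the labels, RNA of 2-month-old retinas, 10 ng for TRAP and 5 ng for lysate, was converted with a low-input cDNA kit, and the submitters' processing notes name CASAVA 1.8.2, HISAT2, DESeq2, edgeR and the build GRCm39. The authors deposited a table read here as a score: counts scaled to a common total per fraction and rounded (totals within 0.00876%). They also deposited TPM per gene. The planned filter, 10 scaled counts in 3 libraries, was kept. Libraries were set to one scale with trimmed means of M values (TMM, trims 0.3 and 0.05), and values were fitted as log2(CPM + 0.5) with limma 3.58.1 (trend, robust) in R 4.3.3, adjusted over all genes. The step was tested on simulated data in which few genes changed and no GC difference was built in. That run does not cover the fraction fits, where most genes differed and the fractions differed by GC content. Shares of TPM were compared by exact permutation in Python 3.11.15 with scipy 1.17.1. Depth in reads is unknown, so no counting intervals are given.

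Rod TRAP and retina libraries of one number shared their deviations from the group means in all 6 pairs (r = 0.16 to 0.43). Their numbers were therefore taken to pair the fractions. KO rod TRAP replicate 2 was, however, closer to KO retina replicate 3 (r = 0.23) than to KO retina replicate 2 (r = 0.21). The blocked fits are an alternative. GC content and similar transcripts came from GENCODE M21 (GRCm38), by symbol, for 95.5% of 17273 genes. Named besides the members were, per list, up to 5 called genes with the largest control fraction difference and a mean of at least 2 TPM, and for each member its 3 nearest genes. The members and lists were chosen with earlier results of these data known. 1 gene of a list is not reported here. Centring by GC content in 20 bins was chosen after seeing the data.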

Additional observations from a re-analysis of the deposited data

Results flagged for a closer look

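Among the 12 groups of 6 libraries in which a family share was measured, 3 shares, from 2 libraries, held a value that stood apart from the other 5 by the gap between neighbours relative to the range, a criterion that chance meets in about 1 in 20 groups. In Abca4 KO rod TRAP replicate 3 Lmna made up 0.151% of the lamin TPM, where the other rod TRAP libraries had 0.268% to 0.297%. That share rests on a Lmna value of 0.1 TPM in a table given to 1 decimal. In Abca4 KO retina replicate 1 Lmnb1 made up 67.5% of the lamin TPM and Lmnb2 23.8%, where the other retina libraries had 47.8% to 55.2% and 29.5% to 32.1%. These 2 shares come from the same library and are not independent. It was also the retina library with the least deficit of GC-poor genes (-0.36). No member differed between the fractions in its genotype change by the interaction test.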

How the results depend on the processing

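The counts of members called, Lmna included where it was tested, were 7 to 9 in controls and 6 to 8 in Abca4 KO under every alternative but 1: without either of the libraries labelled KO replicate 3 the Abca4 KO count was 5 of 8. Leaving out each library in turn gave 7 to 8 in controls and 6 to 7 in Abca4 KO, and Lmna, which then had too few libraries at 10 scaled counts, was not tested without a retina library. Since the filter fixed the direction of Lmna, its call adds no support to these counts. Over all genes, 10228 of 16036 were called in the main Abca4 KO fit and 5566 of 13150 without either library labelled KO replicate 3. In controls the main fit called 12261 of 16286 genes. The genotype and interaction counts were 0 under every alternative. In 3 libraries against 3 the exact test of a share cannot pass the threshold, and the differences in points were, in controls and Abca4 KO, -16.1 and -14.9 for Lmna, 30.2 and 26.1 for Lmnb1, -14.1 and -11.2 for Lmnb2, -3.53 and -1.60 for Cbx1, 18.2 and 12.4 for Cbx3, and -14.7 and -10.8 for Cbx5. The share of Cbx1 was 5.78 points higher in rod TRAP in scaled counts. With the replicate block it kept -2.56 points, with an exact sign-flip p = 0.0625. With the replicate block the counts of members called were 8 and 8, Lmna included, and the block changed no other call of a member. Over all genes 12346 of 16286 and 11402 of 16036 were called with it. Among the other pathway genes named, it added the call of Fnta in Abca4 KO (0.40). Numbers did not pair the genotypes (r = -0.39 to 0.01), and the block there gave 0 in both fractions.

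Signs turned in values near 0 or with the scaling. After centring by GC content, control rod TRAP over retina was 0.59 for Lmnb2, -0.30 for Zmpste24 and 0.13 for Cbx2, and in Abca4 KO 0.54, -0.28 and 0.18. Under the deposited scaling it was -0.042 for Fntb, -0.20 for Fnta, -0.22 for Rce1 and -0.21 for Cbx8, and in Abca4 KO -0.11 for Fnta. Lmnb2 in Abca4 KO was 0.019 with no filter and 0.014 in the fit of 12 libraries. Leaving out each library in turn, it ran from -0.29 to 0.046. The genotype difference in rod TRAP was -0.036 for Emd in TPM and 0.037 for Cbx3 after centring by GC content. With each library left out it ran from -0.059 to 0.054 for Lmnb1, -0.070 to 0.025 for Lmnb2, -0.094 to 0.033 for Sun1, -0.0069 to 0.15 for Cbx1 and -0.10 to 0.035 for Cbx3. In retina it was -0.069 for Lmnb1 in TPM, and after the centring -0.046 for Lbr, 0.021 for Emd and -0.044 for Cbx5. With each library left out it ran from -0.044 to 0.16 for Lmnb1. The interaction of Lmnb1 was 0.043 in TPM and that of Cbx5 0.16 after the centring. With each library left out the interaction ran from -0.025 to 0.64 for Lmna, -0.18 to 0.0033 for Lmnb1 and -0.34 to 0.051 for Cbx5. The cause of these was not tested.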
